A study of Mus musculus with 2 samples.

Results

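Transcripts of 5 families of splicing factors were counted in single cells of a pair of mouse melanoma lines. The members were chosen by name alone: every row of the deposited table of raw molecule counts whose gene symbol begins with Srsf, Hnrnp, Snrp, Sf3a or Sf3b. This rule took 50 of 14959 genes, made up of 10 Srsf, 20 Hnrnp, 11 Snrp, 3 Sf3a and 6 Sf3b genes. Other genes of these families, Snrpn among them, were not analysed here.

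The lines come from the B16 mouse melanoma: B16F0 is labelled as parental and B16F10 as a highly metastatic subclone. No treatment, age or animal is named for either line, and each was represented by 1 library of polyadenylated RNA made with a droplet kit that reads a tag near the transcript's 3' end. The B16F0 library held 2582 cells and 94268486 molecules counted by unique molecular identifiers (UMIs), and the B16F10 library held 1574 cells and 56748682 UMIs. Every interval below therefore covers counting error only, no difference has a replicate check, and no test between groups was possible. All 7 melanocyte markers were found, with summed levels of 7852 counts per 1000000 UMIs (CPM) in the parental line and 7733 in the subclone. Of 10 T and NK cell markers 0 were rows of the table, 3 keratinocyte markers summed to at most 0.552 CPM, 4 macrophage markers to at most 6.53 CPM and 5 fibroblast markers to at most 6.71 CPM, while 4 endothelial markers reached 66.8 and 65.2 CPM. In 6 cases a barcode was shared by the libraries.

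Introns are cut out of nuclear transcripts by the spliceosome, which is built on each intron from small nuclear ribonucleoproteins. The Snrp genes encode proteins of these particles: the Sm proteins that form a ring around the small nuclear RNA, and proteins particular to the U1 and U2 particles. The Sf3a and Sf3b genes encode subunits of the U2 particle that hold it at the branch site. Srsf genes encode SR proteins, which bind exons and mostly favour their inclusion, and Hnrnp genes encode proteins that coat nascent transcripts and often repress splice sites. Several SR and hnRNP proteins limit their own level by splicing their transcript into a form that is degraded. In GENCODE release M21 on GRCm38, 24 of the 50 members had an annotated transcript marked for nonsense-mediated decay: 9 of 10 Srsf, 10 of 20 Hnrnp, 4 of 11 Snrp, 0 of 3 Sf3a and 1 of 6 Sf3b genes. A retained-intron transcript was annotated for 38 members. A 3' count adds all transcripts of a gene that share an end, so the values below do not separate productive from decay-bound forms.

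Between cycling and non-cycling cells, compared below, the Srsf members gave the widest contrast within a family: Srsf2, Srsf3 and Srsf7 were well above in cycling cells and Srsf5 was not. Their promoters are shown for that reason, chosen after the values were seen. Each is the 250 bases before the annotated start, from RefSeq on GRCm38.p6, written 5' to 3' on the gene's strand. Srsf2 lies on the minus strand with its promoter at chr11:116853095-116853344, Srsf3 on the plus strand at chr17:29032410-29032659, Srsf7 on the minus strand at chr17:80207306-80207555 and Srsf5 on the plus strand at chr12:80945249-80945498. Capitals mark every match, on either strand, to 6 motifs given here by their letters: Sp1 GGGCGG, NF-Y CCAAT, ETS CCGGAAGT, E2F TTTCCCGC or TTTGGCGC, the cell cycle element CHR TTTGAA and CRE TGACGTCA.
Srsf2: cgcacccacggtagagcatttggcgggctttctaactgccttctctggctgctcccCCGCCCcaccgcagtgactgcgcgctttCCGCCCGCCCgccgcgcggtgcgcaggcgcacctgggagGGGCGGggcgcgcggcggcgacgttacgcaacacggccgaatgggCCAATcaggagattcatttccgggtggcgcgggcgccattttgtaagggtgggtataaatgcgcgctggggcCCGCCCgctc
Srsf3: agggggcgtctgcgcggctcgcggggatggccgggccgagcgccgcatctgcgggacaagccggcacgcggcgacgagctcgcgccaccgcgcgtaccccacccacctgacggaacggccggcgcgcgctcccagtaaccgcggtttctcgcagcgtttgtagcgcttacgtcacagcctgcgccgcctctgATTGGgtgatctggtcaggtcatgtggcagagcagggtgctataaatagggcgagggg
Srsf7: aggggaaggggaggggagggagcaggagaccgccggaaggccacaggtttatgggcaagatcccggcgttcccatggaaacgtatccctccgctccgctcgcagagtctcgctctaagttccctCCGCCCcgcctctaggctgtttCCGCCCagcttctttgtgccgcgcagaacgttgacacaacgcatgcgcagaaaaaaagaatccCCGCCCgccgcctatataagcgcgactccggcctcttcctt
Srsf5: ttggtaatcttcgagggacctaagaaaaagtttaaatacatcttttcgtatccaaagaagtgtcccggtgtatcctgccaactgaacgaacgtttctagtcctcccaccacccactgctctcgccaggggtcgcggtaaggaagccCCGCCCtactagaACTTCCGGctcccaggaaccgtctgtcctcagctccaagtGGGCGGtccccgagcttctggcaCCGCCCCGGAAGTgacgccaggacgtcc

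The Srsf2 window held Sp1 letters at 194, 166, 162, 127 and 10 bases before the start, those at 166 and 162 overlapping, and NF-Y letters at 82. The Srsf3 window held the NF-Y letters alone, at 58, and the Srsf7 window held the Sp1 letters alone, at 126, 104 and 41. The Srsf5 window held Sp1 letters at 104, 51 and 28 and ETS letters at 91 and 23, those at 28 and 23 overlapping. None of the 4 windows held the E2F, CHR or CRE letters, which says only that these letters are not in these windows. Promoters were matched for 44 members, with 58 starts between them. Sp1 letters were in 92.3% of 13 Srsf promoters, in 70.7% of the 58 member promoters, in 54.7% of the 14114 promoters of genes in the count table and in 32.7% of all 32851 promoters. ETS letters were in 30.8% of Srsf, 15.5% of member, 5.49% of count-table and 2.88% of all promoters. Among Srsf genes these were promoters of Srsf4, Srsf5 and Srsf11. Srsf4 and Srsf11 were higher in cycling cells of both lines, so these letters were not particular to Srsf5. NF-Y letters were in 23.1% of Srsf promoters and 63.0% of 27 Hnrnp promoters, against 35.3% over the count table and 33.8% overall. E2F letters were in 15.4% of Srsf (2 of 13), 6.90% of member (4 of 58), 2.22% of count-table and 1.30% of all promoters. Starts of the same gene, as for Srsf4, were counted as separate promoters, and the shares of single families rest on few promoters. A match is a description of the sequence and not a binding site.

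The members made up 0.911% of all UMIs in B16F0 and 1.05% in B16F10, and their levels spanned from 19.8 to 792 CPM. A 3' count takes 1 tag per molecule, so these CPM values are not scaled by transcript length and order genes by tags. The Hnrnp family was the most abundant, with summed levels of 3732 CPM in the parental line and 4426 CPM in the subclone. It was led by Hnrnpa2b1, which binds splicing silencers and carries RNAs within cells, with 616 and 792 CPM in that order. Hnrnpa1, its close relative and a classical splicing repressor, had 556 and 517 CPM, and Hnrnpab had 555 and 712 CPM. The Snrp family summed to 2639 and 2806 CPM. Its leading members were the Sm protein genes Snrpb with 465 and 511 CPM, Snrpf with 431 and 391 CPM and Snrpe with 427 and 484 CPM. The Srsf family summed to 1787 and 2258 CPM. Srsf3, the smallest SR protein, had 319 and 372 CPM, Srsf2, which binds exonic enhancers, had 310.1 and 429 CPM, and Srsf6 had 247 and 281 CPM.

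The U2 subunits were lower and less even. Sf3b genes summed to 868 and 935 CPM, with Sf3b5 at 281 and 248 CPM, Sf3b6, which contacts the branch-point adenosine, at 156 and 190.4 CPM, and Sf3b2 at 133 and 136 CPM. The 3 Sf3a genes summed to 85.3 and 110.4 CPM, and each of Sf3a1, Sf3a2 and Sf3a3 was below 60 CPM in both lines. The lowest Srsf gene was Srsf4 with 23.0 and 28.8 CPM, and the lowest Hnrnp genes were Hnrnph2 and Hnrnph3. In 11 members, 7 Hnrnp and 4 Snrp genes, at least 1 other annotated gene matched the last 300 bases of the transcript at 95% identity or more over at least 90 bases, and each of the 11 had pseudogenes among these copies. Hnrnpa3 had 31 such genes, Hnrnpf 7, Snrpa 6, Snrpc 4, Snrpe and Hnrnpk 2 each, and Hnrnpa2b1, Hnrnpc, Hnrnpr, Hnrnph2 and Snrpd1 1 each, so levels of these 11 are uncertain where reads could be split between copies. For 20 members, Srsf2, Srsf4, Hnrnpd, Hnrnpab, Hnrnpf, Hnrnpk and Snrpa among them, a gene on the opposite strand overlaps, and use of strand in counting was not given in the sources used here.

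**Figure D1:**
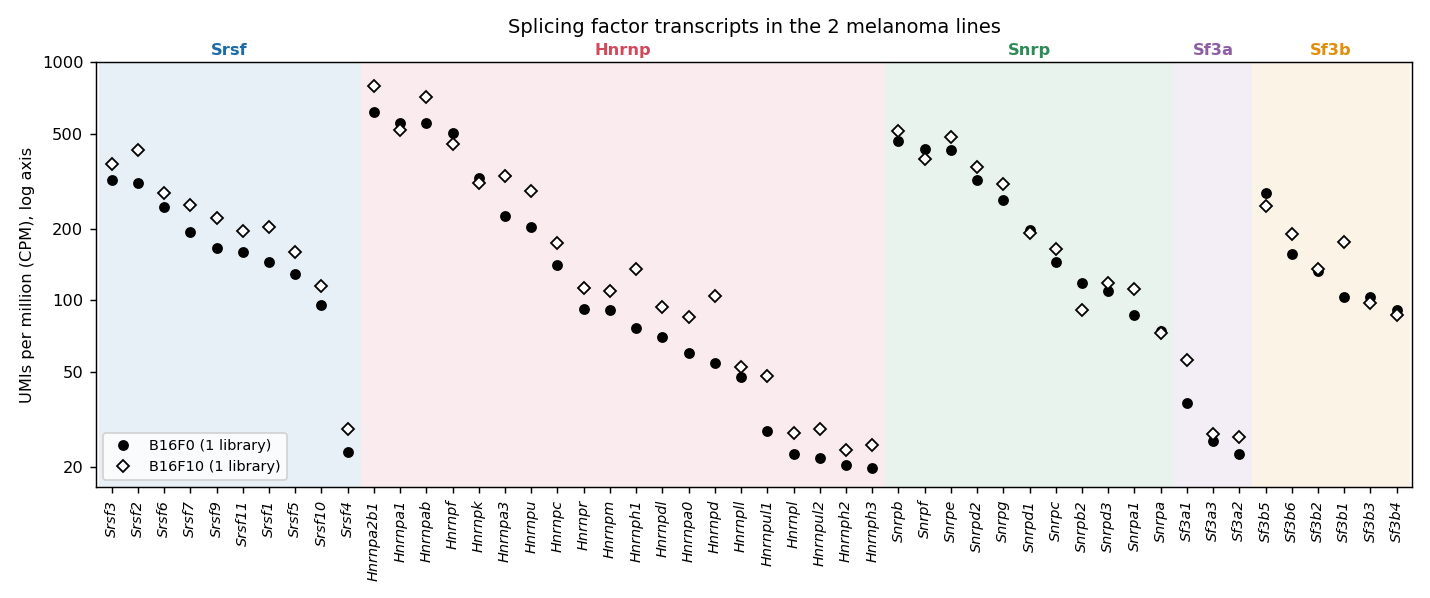
CPM (log axis) of each of the 50 members in the B16F0 library (filled circles) and the B16F10 library (open diamonds), grouped by family and ordered by the B16F0 level. Open diamonds lie above filled circles for all 10 Srsf genes, and Hnrnpa2b1 is the highest point at 792 CPM.

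Between the lines, most members were higher in B16F10, by amounts that were small for most of them. The log2 ratio of CPM, B16F10 over B16F0, had a median of 0.28 over the 50 members against 0.12 over the 5296 genes that reached 20 CPM in either line. At 1.5-fold, 5 members were higher and 0 lower, where 10.6% of all genes were higher and 6.12% lower. Since 5 of 50 is near 10.6%, the count at this fold is no result about the members. By the smaller step of at least 25%, 19 members were higher and 1 lower, against 28.5% and 15.4% of all genes. With TMM factors the ratios shift down by 0.10, which leaves 11 higher and 1 lower by 25% and brings the median of all genes to 0.02 and that of the members to 0.18. Of the 50 members 37 lay above the median of all genes, a count that no scaling of a whole library can change.

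The 5 members past 1.5-fold came from 3 families. Hnrnpd (chr5:99955935-99978938), also known as AUF1, which binds AU-rich elements and speeds the decay of messages that carry them, had 54.5 CPM in the parental line and 104 CPM in the subclone, a log2 ratio of 0.93 (0.88 to 0.99). Hnrnph1 (chr11:50376990-50386528), which binds runs of G, had 76.4 and 135 CPM, a log2 ratio of 0.82 (0.77 to 0.87). Sf3b1 (chr1:54985169-55027481), the largest SF3B subunit and a gene mutated in some human uveal melanomas, had 103 and 176 CPM, a log2 ratio of 0.77 (0.73 to 0.81). Hnrnpul1 (chr7:25721165-25754757) had 28.4 and 48.3 CPM, a ratio of 0.77, and Sf3a1 (chr11:4160350-4182541) had 37.2 and 56.4 CPM, a ratio of 0.60. Sf3a1 fell short of 1.5-fold with TMM factors or DESeq2 size factors, and the other 4 stayed past it.

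The families differed in how evenly they moved. All 10 Srsf genes were higher in B16F10, also with TMM factors, DESeq2 size factors or a total that omits ribosomal protein and mitochondrial genes, with log2 ratios from 0.18 to 0.50, and 5 of them were higher by at least 25%. Over all genes at 20 CPM, 3250 of 5296 were above 0 between the lines. Srsf1, the SR protein with the best-known oncogenic activity, went from 145 to 204 CPM (0.50), followed by Srsf2 (0.47) and Srsf9 (0.42). Among non-cycling cells alone 7 of the 9 Srsf genes at 20 CPM were higher, with a median of 0.07 against 0.04 for all genes, and Srsf3 (255 to 216 CPM) and Srsf6 (201 to 187 CPM) were lower. Within clusters C3 and C4, described further on, 5 of 9 and 5 of 10 were above 0. Over all genes, 2759 of 5094 were above 0 in non-cycling cells, 2515 of 5125 in C3 and 3004 of 5653 in C4. The Srsf counts in the clusters are near these shares and are no result about the family. Of the Hnrnp genes 17 were higher and 3 lower, Hnrnpf at -0.16, Hnrnpa1 at -0.10 and Hnrnpk at -0.08. The Snrp genes gave a median of 0.14, near the 0.12 of all genes, and held the only member lower by at least 25%. This was Snrpb2 (chr2:143063039-143072853), a U2 particle protein, with 119 CPM in the parental line and 90.7 CPM in the subclone, a ratio of -0.39 (-0.44 to -0.34). The Sf3b family was split: apart from Sf3b1 and Sf3b6 (0.29), its members lay between -0.18 for Sf3b5 and 0.03 for Sf3b2, and Sf3b2 changed sign with TMM factors or DESeq2 size factors.

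The lines also differed in the share of cells classed as cycling by the authors, 54.6% in B16F0 and 78.1% in B16F10, and in the median mitochondrial share, 5.35% and 6.72%. Within cycling cells alone, 5 members were higher at 1.5-fold and 0 lower, against 8.07% and 5.99% of all genes, and the members' median was 0.23 against 0.09. Hnrnpa3 (0.60), which has many copies, joined Hnrnpd, Sf3b1, Hnrnph1 and Hnrnpul1 there in place of Sf3a1. Within non-cycling cells, 49 members reached 20 CPM, their median was 0.06 against 0.04 for all genes, and 2 were higher and 0 lower at 1.5-fold, against 10.2% and 7.32%. Those were Hnrnpul1 (0.72) and Hnrnph1 (0.64). Hnrnpd went from 43.9 to 57.2 CPM there, a ratio of 0.38, and Sf3b1 from 99.1 to 130.3 CPM, a ratio of 0.40. By at least 25%, 9 members were higher and 6 lower in non-cycling cells, against 25.3% and 20.4% of all genes, the lowest being Sf3b4 at -0.53, Snrpb2 at -0.51 and Hnrnpf at -0.48. Hnrnph1 and Hnrnpul1 were thus past 1.5-fold in all 3 sets of cells, and Snrpb2 was lower by at least 25% in all 3. Ratios of Hnrnpf, Hnrnpk, Hnrnpa1, Snrpf, Snrpd1, Sf3b3, Sf3b4 and Sf3b5 were also below 0 in all 3, but not by 25% in each.

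**Figure D2:**
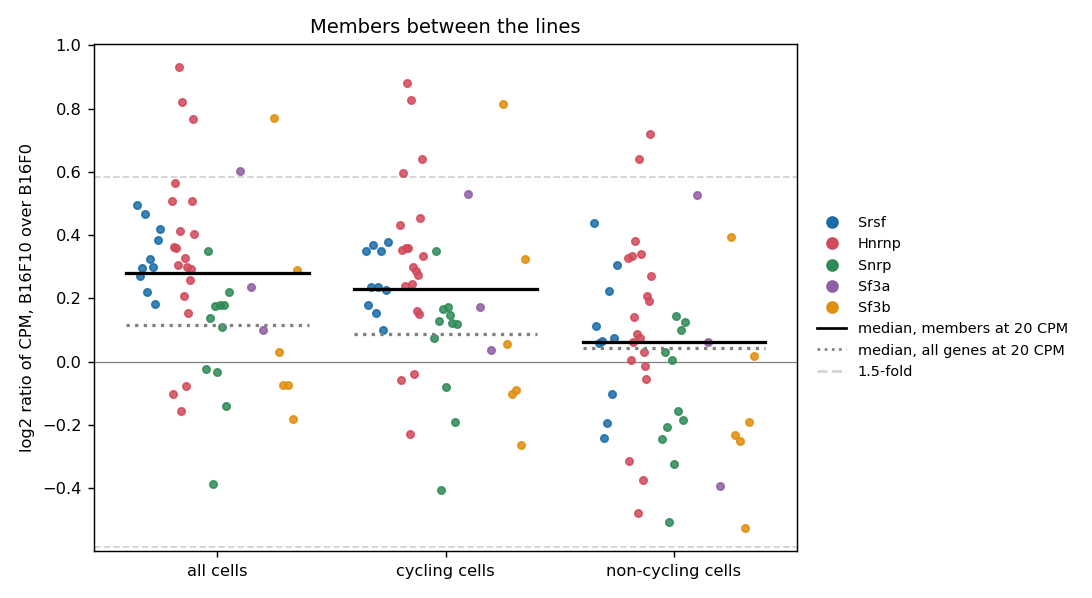
Log2 ratio of CPM, B16F10 over B16F0, of each member (points, coloured by family) in all cells, in cycling cells and in non-cycling cells. Solid bars are the median over members with at least 20 CPM (0.28, 0.23 and 0.06), dotted bars the median over all such genes (0.12, 0.09 and 0.04), and dashed lines mark 1.5-fold.

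Cycling cells held a higher CPM of splicing factor transcripts than non-cycling cells of the same line, and this was the most general pattern across the families. The class is the authors' and equals an S or G2/M score above 0 in all 4156 cells, so it was made from genes of the same cells, with the genes behind the scores not given in the sources used here. Summed over the 50 members, B16F0 had 9922 CPM in 1411 cycling cells and 8066 CPM in 1171 non-cycling cells, and B16F10 had 11180 CPM in 1230 and 7904 CPM in 344. In B16F0, 6 members were higher at 1.5-fold and 0 lower, against 9.35% and 1.03% of all genes, and in B16F10 15 were higher and 0 lower, against 13.0% and 3.43%. By at least 25%, 22 members were higher in B16F0, against 19.7% of all genes, and 34 in B16F10, against 28.1%, with 0 lower in both, against 5.94% and 10.7%. The share at 1.5-fold in B16F0 is thus near that of all genes, and the other 3 shares of higher members are above it. The members' median was 0.27 in B16F0 against 0.06 for all genes, and 0.46 in B16F10 against 0.11. For 44 of 50 members the counting interval lay above 0 in both lines, and for 0 members below 0 in both. Such intervals were not counted over all genes, whose median was itself above 0 in both lines, so these counts are no result about the members. Above the median of all genes lay 44 of the 50 members in B16F0 and 47 in B16F10.

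Srsf genes were at the upper end. Their summed level was 2043 CPM in cycling and 1457 CPM in non-cycling cells of B16F0, and 2436 and 1529 CPM in B16F10. Srsf7 (chr17:80200080-80207307), an SR protein with a zinc knuckle, had 239 CPM in cycling and 134 CPM in non-cycling B16F0 cells, and 279 and 141 CPM in B16F10, log2 ratios of 0.84 (0.79 to 0.88) and 0.99 (0.91 to 1.06). Srsf2 had 366 and 238 CPM in B16F0 and 473 and 249 CPM in B16F10, ratios of 0.62 and 0.93. Srsf3 had 369 and 255 CPM in B16F0 and 411 and 216 CPM in B16F10, ratios of 0.53 and 0.93. In each of these 3 genes the non-cycling levels of both lines lay below both cycling levels. Srsf4 was low but had ratios of 0.64 and 1.07, and Srsf6 (0.49 and 0.70), Srsf1 (0.61 and 0.52), Srsf10 (0.45 and 0.52), Srsf11 (0.38 and 0.56) and Srsf9 (0.24 and 0.31) followed. Srsf10 encodes an SR-like protein that represses splicing once dephosphorylated, as happens in mitosis. Srsf5 stood apart within its family, with 126 CPM in cycling and 135 CPM in non-cycling cells of B16F0 and 160.0 and 157 CPM in B16F10, ratios of -0.10 (-0.15 to -0.05) and 0.03 (-0.05 to 0.10).

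Among Hnrnp genes the ratios of both lines lay between -0.06 and 1.02. Hnrnpab, an A/B type hnRNP that also binds single-stranded DNA, had 659.9 CPM in cycling and 419.5 CPM in non-cycling B16F0 cells and 779 and 438 CPM in B16F10, ratios of 0.65 and 0.83. Hnrnpd had ratios of 0.52 and 1.02, Hnrnpf 0.47 and 0.72, Hnrnpr 0.60 and 0.55, Hnrnpdl 0.41 and 0.68, and Hnrnpu, a nuclear matrix protein, 0.40 and 0.66. At the other end stood Hnrnpc, which binds uridine tracts, with -0.06 in B16F0 and 0.16 in B16F10, Hnrnph2 with -0.02 and 0.15, and Hnrnph3 with 0.09 and 0.05. Hnrnpa1 had 558 CPM in cycling and 553 CPM in non-cycling B16F0 cells, a ratio of 0.01, and 535 and 445 CPM in B16F10, a ratio of 0.27. Its relative Hnrnpa2b1 had ratios of 0.28 and 0.63.

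Ratios of the particle proteins varied from subunit to subunit. Of the Snrp genes, 0 of 11 passed 1.5-fold in B16F0 and 2 of 11 in B16F10, the Sm genes Snrpd1 (0.37 and 0.61) and Snrpb (0.26 and 0.59), and the family medians were 0.20 and 0.32. The other Sm genes ranged from Snrpg (0.45 and 0.44) to Snrpd2 (0.04 and 0.07), so members of the same ring did not share a ratio. Snrpa, a U1 particle protein, was at -0.14 in B16F0 and 0.17 in B16F10. Sf3a3 had 29.5 CPM in cycling and 20.5 CPM in non-cycling B16F0 cells and 30.3 and 15.6 CPM in B16F10, ratios of 0.53 and 0.96. Sf3b4 had ratios of 0.33 and 0.77, and Sf3b1 of 0.11 and 0.53. Cycling cells also held more UMIs, with medians of 37356 against 33745 per cell in B16F0 and 36316 against 30189 in B16F10, and mitochondrial medians of 5.33% against 5.39% and 6.42% against 7.73%. With every cell thinned to 19718 UMIs, 5 of the 6 members in B16F0 and 14 of the 15 in B16F10 stayed past 1.5-fold. With a total that leaves out mitochondrial and ribosomal protein genes, 2 members remained past it in B16F0 and 10 in B16F10, and the median of all genes in B16F10 went from 0.11 to 0.00.

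**Figure D3:**
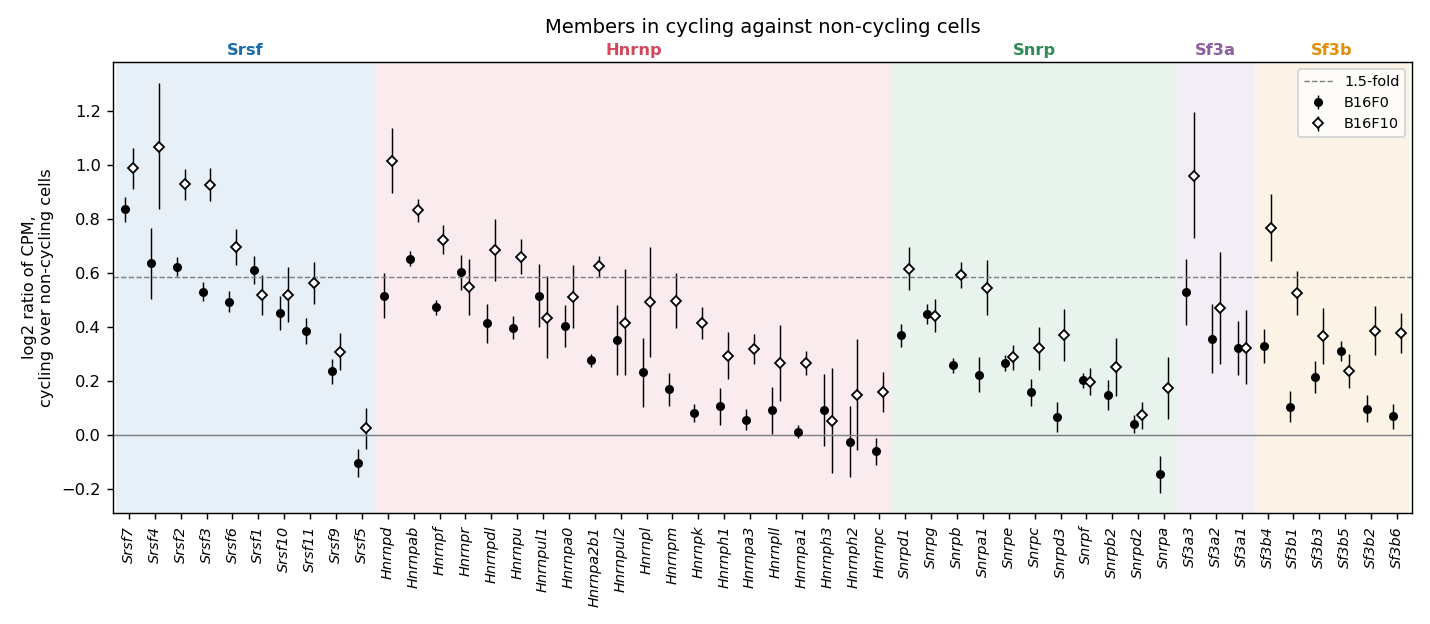
Log2 ratio of CPM, cycling over non-cycling cells, of each member in B16F0 (filled circles) and B16F10 (open diamonds), with exact 95% counting intervals as bars, ordered within each family by the sum of both ratios. Srsf7 leads its family at 0.84 and 0.99, Srsf5 ends it at -0.10 and 0.03, and the dashed line marks 1.5-fold.

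Other genes of the splicing pathway, from lists that are no members, gave a background to this. Of 60 listed core spliceosome genes outside the 5 families, 8 of 48 at 20 CPM were higher at 1.5-fold in cycling B16F0 cells and 10 of 50 in B16F10, with 0 lower in both, where 9.35% and 13.0% of all genes were higher. Among the large ratios were those of Lsm2 (1.62 and 1.60) and Lsm3 (1.36 and 1.36), which encode ring proteins of the U6 particle, of the cyclophilin gene Ppih (1.10 and 1.10) and of Prpf4 (1.07 and 1.17). Of other regulators of splice site choice, 0 of 33 were higher in B16F0 and 6 of 34 in B16F10, with 0 lower in both; Srrm2, a scaffold of nuclear speckles, had ratios of 0.52 and 0.79. Of 9 listed SR protein kinases, import factors and phosphatase subunits at 20 CPM, 0 were higher in B16F0 and 1 in B16F10. That 1 was the SR protein kinase gene Srpk1 (0.47 and 0.76), while the kinase gene Clk1 had -0.03 and 0.02. Of the genes that assemble the particles, 2 of 9 and 3 of 10 were higher, among them Gemin6 (1.67 and 1.39) and Gemin2 (0.80 and 0.87) of the SMN complex. Between the lines, 3 of 50 core genes were higher in B16F10 at 1.5-fold and 1 lower, shares below the 10.6% and 6.12% of all genes. These were Prpf4 (0.76), Prpf38a (0.68), Snrnp70 (0.66) and Lsm8 (-0.65). Of the other regulators 5 of 34 were higher and 0 lower, Rbmx (0.76) and Pnn (0.69) among them. Of the assembly genes 1 of 10 was higher, and of the kinases, import factors and phosphatase subunits 0 of 9.

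The authors' second clustering placed cells of both lines in clusters C1 to C5. In B16F0, C1 to C4 held 816, 644, 640 and 469 cells, and in B16F10, C3 to C5 held 306, 212 and 1045. The remaining combinations held at most 13 cells and were not compared. Cycling cells made up 26.8% of C1 and 11.1% of C3 in B16F0, against 99.5% of C2 and 99.6% of C4. In B16F10 they made up 8.50% of C3, 100% of C4 and 94.4% of C5. Clusters were made by the authors from genes of these cells, so the ratios of a cluster over the other cells of its line are a description.

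In B16F10 the families divided the clusters most sharply. In C3, 20 members were lower at 1.5-fold and 0 higher, against 15.4% and 3.89% of all genes, with a median of -0.49 against -0.15. Hnrnpd had 51.4 CPM in C3, 70.6 CPM in C4 and 123 CPM in C5. Srsf2 had 229, 391 and 486 CPM, Srsf7 135, 231 and 286 CPM, and Srsf3 206, 384 and 412 CPM in the same order. Each of these 4 genes was lowest in C3 and highest in C5. In C5, 13 members were higher and 0 lower, against 12.0% and 5.41% of all genes, with a median of 0.38 against 0.10. C5 cells were 94.4% and the other cells 46.1% cycling. Among cycling cells alone 2 members were higher in C5, with a median of 0.24 against 0.01 for all genes. Among non-cycling cells alone 14 were higher, with a median of 0.41 against 0.15. Few C5 cells entered there, as 986 of the 1045 were cycling. The total without mitochondrial and ribosomal protein genes left 7, with a median of 0.26 against -0.02. For C3, the 20 lower members became 12 among cycling cells, 10 among non-cycling cells and 13 with that total. The members' medians were then -0.38, -0.34 and -0.35, against -0.13, -0.14 and -0.02 for all genes. Shares of all genes past 1.5-fold were not counted under these settings of C5 and C3. Nearly all non-cycling B16F10 cells outside C5 were C3 cells. The non-cycling values of C5 and C3 are thus nearly the same contrast, seen from either side. Srsf5, with 154, 145 and 164 CPM, and Snrpd2, with 346, 265 and 383 CPM, were not lowest in C3. Nor were Hnrnph3, Snrpa, Sf3b6 and Snrpb2. C3 in B16F0 had fewer members past that fold: 1 member, Srsf4 at -0.69, was lower at 1.5-fold and 0 higher, against 7.06% and 3.31% of all genes. The median was -0.16 against -0.03. The other cells of the line were 69.0% cycling in B16F0 and 95% in B16F10. Against the other non-cycling cells alone, the C3 median was 0.04 in B16F0 and -0.34 in B16F10, against 0.01 and -0.14 for all genes. Few such other cells remained in B16F10, which had 344 non-cycling cells, while only 26 of its 306 C3 cells were cycling.

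C1 of B16F0 was the other cluster with mostly non-cycling cells. There 3 members were lower at 1.5-fold and 0 higher, against 6.63% and 1.21% of all genes: Srsf7 (-0.67), Hnrnpd (-0.60) and Hnrnpul1 (-0.60). With TMM factors 1 of them stayed past that fold, and 3 of 50 is near the 6.63% of all genes. Hnrnpa1 went the other way in C1, with 630.3 CPM against 615 CPM in C2, 460.2 CPM in C3 and 477 CPM in C4, a ratio of 0.27 (0.25 to 0.30) over the other cells.

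Some members also differed between the clusters made up mostly of cycling cells. In B16F0, C2 had 0 members past 1.5-fold, against 6.98% of all genes higher and 3.23% lower. By at least 25%, 9 members were higher and 2 lower, against 18.1% and 9.64%, and 4 and 2 with TMM factors. C4 had 2 higher, Srsf7 (0.74) and Hnrnpd (0.69), and 0 lower, against 7.68% and 1.6%. Set directly against C2, C4 had 0 members past 1.5-fold, against 5.0% and 1.93%. By at least 25%, 9 were higher and 1 lower, against 14.4% and 7.75%. Both counts of 9 higher members are near the shares of all genes, so neither is a result about the members. The members' median, C4 over C2, was 0.11 against 0.01 for all genes. Hnrnpc had 172 CPM in C4 and 115 CPM in C2, a ratio of 0.58 (0.50 to 0.65), and Hnrnpd (0.53), Snrpb (0.51), Srsf5 (0.50), Hnrnpa3 (0.48) and Sf3b1 (0.45) were also higher. Hnrnpa1 was lower, with 477 CPM in C4 and 615 CPM in C2, a ratio of -0.36 (-0.40 to -0.33), and Snrpg (-0.29) and Snrpf (-0.24) were the next lowest. Hnrnpc and Srsf5, which gave ratios near 0 between cycling and non-cycling cells, thus differed between clusters: Srsf5 had 106 CPM in C2 and 149.7 CPM in C4, with 149 CPM in C3.

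In B16F10, C4 had 1 member higher at 1.5-fold, Hnrnpul1 (0.60), and 1 lower, Hnrnpd (-0.62), against 10.3% and 9.87% of all genes. With TMM factors this became 0 higher and 3 lower, and with the total that leaves out mitochondrial and ribosomal protein genes 2 higher and 0 lower. C4 cells there had a median of 29693 UMIs and 8.58% mitochondrial counts, against 36046 and 6.45% in the other cells, while thinned cells gave 1 higher and 0 lower and cells with at most 8% mitochondrial counts gave 1 and 1. Set against C4, C5 had 2 members higher, Hnrnpd at 0.80 (0.66 to 0.95) and Snrpa1 at 0.68 (0.55 to 0.82), and 0 lower, against 12.2% and 10.7%. By at least 25%, 16 were higher and 3 lower, against 25.6% and 25.5%. The 3 lower members were Hnrnph3 (-0.56), Hnrnpul1 (-0.53) and Srsf1, which had 206 CPM in C5 and 276 CPM in C4, a ratio of -0.42 (-0.50 to -0.35).

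Cells of the same cluster could be set against each other across the lines for C3 and C4. In C3, 48 members reached 20 CPM, and 1 was higher in B16F10 at 1.5-fold, Hnrnph1 (0.65), and 1 lower, Sf3b4 (-0.77), against 8.39% and 9.83% of all genes. In C4, Hnrnpul1 (0.92), Hnrnph1 (0.91) and Hnrnph3 (0.60) were higher and Sf3b4 (-0.70), Hnrnpf (-0.67) and Snrpb2 (-0.65) lower, 3 each way, against 17.4% and 15.1%. With TMM factors the C4 ratios shift down by 0.13, which gives 2 higher and 6 lower, and in C3 these factors give 1 higher and 2 lower and DESeq2 size factors 0 and 2. The C4 cells of B16F10 and B16F0 had mitochondrial medians of 8.58% and 4.87% and median UMIs of 29693 and 38645, and the part of these values in the result was not tested. Sf3b4 encodes the SF3B subunit that contacts the transcript upstream of the branch site. Within C3 it had 85.8 CPM in the parental line and 50.2 CPM in the subclone, against 117 and 71.9 CPM within C4 and 91.2 and 86.6 CPM over all cells.

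**Figure D4:**
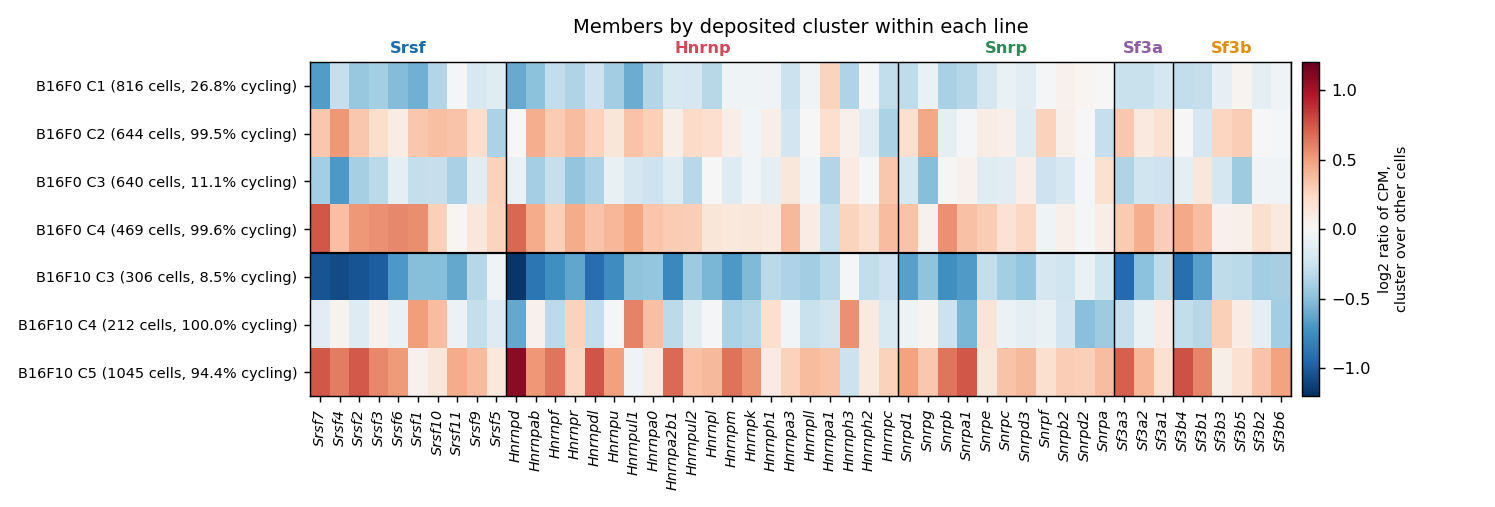
Colour gives the log2 ratio of CPM of each member (columns, by family) in a deposited cluster over the other cells of its line (rows, with cell number and share of cycling cells), red for higher and blue for lower. C3 of B16F10 is the bluest row, down to -1.16 for Hnrnpd, and C5 of B16F10 the reddest, up to 1.08 for Hnrnpd.

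Kdm5b encodes a histone demethylase used as a marker of slow-cycling melanoma cells, and the authors classed 111 of 2582 B16F0 cells and 121 of 1574 B16F10 cells as Kdm5b-high. Members were slightly lower in the high class in both lines. In B16F0 0 members passed 1.5-fold either way, against 0.995% of all genes higher and 3.66% lower, and the median was -0.08 against 0.01. By at least 25%, 1 was higher and 5 lower, against 7.38% and 9.41%, and 0 and 6 with TMM factors. In B16F10 2 were lower and 0 higher at 1.5-fold, against 4.26% and 1.83%, and the median was -0.17 against -0.02. By at least 25%, 8 were lower and 0 higher, against 12.5% and 7.59%. The shares of lower members by at least 25% are near those of all genes, and the shares of higher members are below them. The 2 past 1.5-fold were low-count genes. Sf3a3 had 16.6 CPM in high and 28.2 CPM in low cells, a ratio of -0.77 (-1.15 to -0.40), and Srsf4 had 18.1 and 29.6 CPM, a ratio of -0.71 (-1.07 to -0.36). Neither remained past 1.5-fold once cells were thinned. Hnrnpab had 444 CPM in high and 559 CPM in low cells of B16F0, a ratio of -0.33, and 507 and 727 CPM in B16F10, a ratio of -0.52.

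The classes differ in cycling: 18.0% of high and 56.3% of low cells were cycling in B16F0, and 36.4% and 81.6% in B16F10. Among non-cycling cells alone, with 91 and 77 Kdm5b-high cells, 0 members passed 1.5-fold in either line, against 0.62% higher and 0.372% lower of all genes in B16F0 and 1.1% and 0.492% in B16F10. The medians were then 0.07 and 0.05, above 0 and near the 0.04 and 0.03 of all genes. Among cycling cells, with 20 and 44 Kdm5b-high cells, 0 members passed 1.5-fold as well, where 7.67% and 3.19% of all genes were higher and 7.01% and 2.61% lower, and the medians were 0.01 and 0.03. Over all cells 14 members had intervals below 0 in both lines and 1 above 0 in both, with no such count made over all genes. That 1 was Srsf5, with 153 CPM in high and 129 CPM in low cells of B16F0, a ratio of 0.25 (0.12 to 0.38), and 181 and 158 CPM in B16F10, a ratio of 0.20 (0.09 to 0.31). Among non-cycling cells its ratios were 0.20 (0.06 to 0.34) and 0.21 (0.05 to 0.37). It was not alone there: Sf3b1 (0.31 and 0.21), Hnrnpa3 (0.15 and 0.16), Snrpb (0.10 and 0.15) and Hnrnpk (0.10 and 0.24) also had both intervals above 0. Intervals below 0 were those of Hnrnpa1 in B16F0 (-0.09) and of Hnrnpab (-0.22), Srsf3 (-0.15) and Snrpd2 (-0.15) in B16F10. Hnrnpc was higher in the high class of B16F0 (0.34) and not in that of B16F10 (-0.01), and whether the lines differ in this was not tested.

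**Figure D5:**
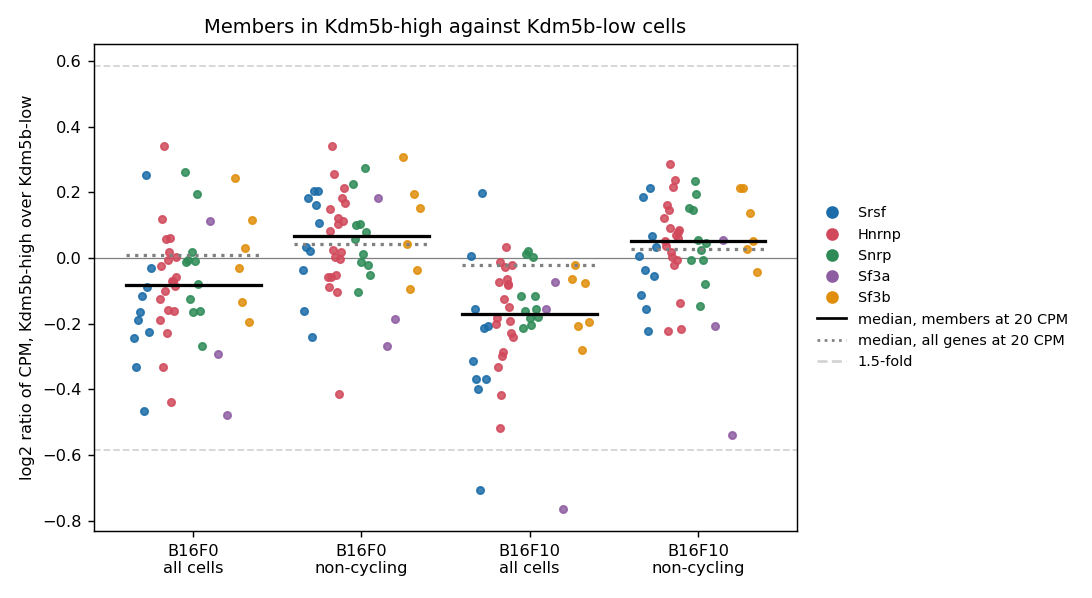
Log2 ratio of CPM, Kdm5b-high over Kdm5b-low cells, of each member (points, coloured by family) in all cells and in non-cycling cells of each line. Solid bars, the median over members with at least 20 CPM, lie at -0.08 and -0.17 in all cells and at 0.07 and 0.05 in non-cycling cells, dotted bars are the median over all such genes, and dashed lines mark 1.5-fold.

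From cell to cell, the spread of each member was taken after thinning every cell to 19718 UMIs, which left out 259 cells of B16F0 and 72 of B16F10. The Fano factor, the variance of the count over its mean, is 1 for pure counting noise and was 1.09 in B16F0 and 1.10 in B16F10 at the median over all genes whose thinned mean reached 0.1 UMI. Most members are more abundant than that minimum, genes were not matched on level, and cycling and non-cycling cells were pooled, so the factors of members are given as values and not as a contrast with all genes. Over the members it ranged from 0.986 to 2.58 in B16F0, with a median of 1.28, and from 1.04 to 3.04 in B16F10, with a median of 1.34. The largest values belonged to Hnrnpa2b1 in both lines, at 2.58 and 3.04, with means of 12.2 and 15.4 thinned UMIs per cell. Next came Hnrnpa1 (2.54) and Hnrnpf (2.51) in B16F0 and Srsf3 (2.58) and Snrpb (2.36) in B16F10. Summed Srsf and Hnrnp counts went together across cells within a class, with Pearson's r of 0.48 over 1255 cycling and 0.48 over 1068 non-cycling cells of B16F0, and 0.42 over 1184 and 0.50 over 318 of B16F10. The lowest pair was Sf3a with Sf3b in non-cycling B16F10 cells, at 0.07, where the Sf3a sum had a mean of 1.64 UMIs per cell. Cells of a class share their library and their total count, so these r values describe the cells and carry no test.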

How the data were processed

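Single-cell 3' libraries of B16F0 and B16F10 were made with the 10x Chromium kit, chemistry version 2, per the labels' protocols. The submitters' processing notes name Cell Ranger 3.0.0, Seurat 3.0 and mm10, with settings and cell filters not given in the sources used here. Raw UMI counts of 14959 genes in 4156 cells were deposited by the authors. A second deposited table holds S and G2/M scores and the classes of each cell. All deposited cells were kept; they held 3011 to 6996 genes and at most 19.9% mitochondrial counts. No doublet caller was run. Cells were assigned to lines, and classes taken, from the deposited cell table.

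Counts were summed over the cells of a line or class and divided by the sum's total to give CPM. Each log2 ratio carries an exact 95% conditional binomial interval for counting error only. With 1 library per line, and cells not being replicates, no test was made. Members were counted at 1.5-fold and at 25% where the higher side reached 20 CPM, beside all genes treated the same way, and clusters were compared within a line where at least 50 cells lay on each side. The named members are the 3 most abundant of each family, those at either end of each comparison and a fixed set; of the other lists, the ends were named. Further members are named to account for their families. Genes of these lists outside that rule (Lsm2, Lsm3, Ppih, Srrm2, Srpk1, Gemin6 and Gemin2 among them), the shown promoters and the direct comparisons between clusters were chosen after the values were seen. The members, lists and tests were chosen with earlier results of these data known.

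Alternatives were TMM factors (edgeR 4.0.16), DESeq2 1.42.0 size factors, a total leaving out 13 mitochondrial genes and 81 for ribosomal proteins, per-cell CPM averaged over cells, thinned cells, cells below 8% mitochondrial counts, leaving out the 5% of cells with the most UMIs, other CPM minimums, and non-cycling or cycling cells alone. After seeing the data, cycling cells alone were added for Kdm5b classes and clusters, with at least 20 cells on each side, as were TMM and DESeq2 factors within clusters across the lines. Other tools were R 4.3.3, BLAST 2.17.0, scipy 1.17.1 and matplotlib 3.10.9 under Python 3.11.15. On simulated counts for the comparison of the lines, over 4948 genes, 94.6% of intervals held the true ratio. There 200 of 200 genes changed by 2-fold were called and 0 unchanged ones. With 1 library per line, this checks the calculation and not whether differences would recur in further libraries.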

Additional observations from a re-analysis of the deposited data

Results flagged for a closer look

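Some members lay on opposite sides of 0 in the 2 lines under the same contrast, each with a counting interval that leaves out 0. With 1 library per line the difference between the lines was not tested for any of them. Between cycling and non-cycling cells, Snrpa had a log2 ratio of -0.14 in B16F0 and 0.17 in B16F10, and Hnrnpc had -0.06 and 0.16. Both have annotated pseudogene copies of their transcript ends.

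For cluster C3 against the other cells of its line, 5 members were higher in B16F0 and lower in B16F10. Sf3b1 had 0.14 and -0.65, Hnrnpa3 0.14 and -0.37, Snrpa 0.19 and -0.24, Snrpd3 0.08 and -0.47, and Hnrnpc 0.32 and -0.25. The other cells were 69.0% cycling in B16F0 and 95% cycling in B16F10. For cluster C4 against the other cells, 20 of 50 members had opposite signs. Here too the other cells differed, with 44.7% cycling in B16F0 and 74.7% in B16F10. The share of all genes with opposite signs was not counted for any of these contrasts. The counts of members are therefore no result about the families.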

How the results depend on the processing

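No paired analysis was possible because each line has 1 library and no number pairs them. Over 11 settings, 6250 values of single members were recomputed: 5001 stayed within their counting interval, 1249 moved outside it, and 0 members past 1.5-fold changed sign. The counts of members past 1.5-fold moved by over 1.5 times as follows. Between the lines, non-cycling cells gave 2 in place of 5. For cycling against non-cycling cells of B16F0, the total without mitochondrial and ribosomal protein genes gave 2 in place of 6. For the Kdm5b classes, thinned cells gave 3 in place of 0 in B16F0, and in B16F10 thinned cells, a minimum of 50 CPM, non-cycling cells and cycling cells each gave 0 in place of 2. In C1 of B16F0, TMM factors, DESeq2 size factors, the total without those genes, the mean of per-cell CPM, thinned cells, leaving out the cells with the most UMIs and cycling cells each gave 1 and non-cycling cells gave 0 in place of 3. In C3 of B16F0, thinned cells, a minimum of 50 CPM and non-cycling cells each gave 0 in place of 1, and in C4 cycling cells gave 0 in place of 2. In C3 of B16F10, the total without those genes gave 13, non-cycling cells 10 and cycling cells 12 in place of 20, the last from 26 cycling C3 cells. In C4 the mean of per-cell CPM gave 0, and thinned cells and leaving out the cells with the most UMIs gave 1 in place of 2. In C5 the total without those genes gave 7 and cycling cells 2 in place of 13. The cause of these moves was not tested. C2 and C4 of B16F0 and C4 of B16F10 hold too few non-cycling cells for that setting. In the small Kdm5b-high classes, members near 20 CPM have wide counting intervals.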
